A study of Mus musculus with 12 samples.

Results

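Chamber identity was examined in embryos that lack functional endothelial nitric oxide synthase, as the difference between right and left ventricle across all genes measured. The comparison used 6 of the 12 Affymetrix arrays of the series, which are all arrays labelled as knockout: 3 of right ventricle (RV) and 3 of left ventricle (LV). All 6 carried RNA of embryos at 14.5 days post coitum that were homozygous for a targeted allele of Nos3 in strain B6.129P2-Nos3tm1unc/J (KO). The other 6 arrays, 3 of LV and 3 of RV, came from wild-type CD1 embryos (WT) of the same age. Each array held a pool of 15 to 30 embryos whose ventricles had been dissected, rinsed and frozen, so single embryos, their sex and their individual heart phenotype were not resolved. Both KO groups carry the same allele in the same strain, whereas a comparison with WT mixes the allele with the strain. The 3 pools of a group are separate samples by their labels. The p-values of single genes rest on the spread between pools within a group, estimated over all 4 groups together, WT included. Nothing in the labels says from which litters the pools were made.

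The left ventricle derives largely from the first heart field, whose cells carry the T-box factor Tbx5 and the factor Hand1. The right ventricle and the outflow tract derive from the second heart field, marked early by Isl1, Fgf8, Fgf10 and Tbx1, and need Hand2 and Mef2c to form. Nos3, expressed in endothelium and endocardium, makes nitric oxide, which raises cyclic GMP in neighbouring cells, and its loss in mice is known for septal and valve defects of the forming heart.

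Values are log2 expression, and every difference is RV minus LV on that scale, so 1 unit is a doubling of the signal. The median of all values was 5.67 and the highest 15.19, and brightness was not compared between genes. The labelled tissue was checked with 5 ventricular muscle genes. Myl2, the regulatory light chain of ventricular myosin, read 15.03 to 15.04 in LV and 15.02 to 15.05 in RV. Myh7 read 14.79 to 14.94 and 14.72 to 14.91, and Myl3 14.88 to 14.92 and 14.94 to 14.96, all near the top of the scale, where a difference may not show. The ventricular transcription factors Irx4 (9.73 to 9.98 in LV, 9.69 to 9.92 in RV) and Hey2 (10.31 to 10.61 and 10.35 to 10.63) overlapped between the chambers. None of the 5 was called, and the 6 arrays carried ventricular muscle transcripts throughout. Nos3 itself read 7.95, 8.02 and 7.86 in KO LV and 8.23, 8.04 and 7.77 in KO RV (difference 0.07, adjusted p = 0.917), overlapping between the chambers, against 8.30 to 8.94 on the WT arrays. Which part of the transcript its probe set reads, relative to the targeted part of the gene, was not known here, so this does not check the genotype.

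The arrays were close to each other, with correlations across genes of 0.994 to 0.997 between chambers and 0.996 to 0.998 within them, and the SD over replicates had a median of 0.10 across genes in either KO group. Probe sets for poly-A transcripts added before labelling averaged 8.06, 8.26 and 8.47 in LV and 7.35, 7.90 and 8.37 in RV, overlapping between the chambers (two-sided exact permutation p = 0.3) but lower in RV in each of the 3 like-numbered pairs. They averaged 8.89 to 8.96 on the 3 WT LV arrays and on WT RV replicate 3, an array that stood apart from its own group. On WT RV replicates 1 and 2 they averaged 8.05 and 8.13. Without WT RV replicate 3, chamber and poly-A control level therefore cannot be told apart in WT. With the mean of these controls as a term in the fit, 177 genes were called higher in RV and 112 higher in LV in KO. Of these, 87 and 88 were among the genes called without that term.

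In KO embryos 100 genes were called higher in RV and 108 higher in LV (limma, Benjamini-Hochberg adjusted p under 0.05 over 18194 genes), which is 0.550% and 0.594% of those tested and 1.14% together. "Called" has that meaning throughout. A difference of at least 1 was reached by 20 and 23 of them (0.110% and 0.126% of all genes). The 3 RV values lay above all 3 LV values for 9.24% of all genes and below them for 10.4%, 19.7% together. The median difference over all genes was -0.00. With the replicate number as a fixed block the counts were 118 and 146, and with it as a random block 153 and 178. Leaving out 1 KO array left 47 to 59 genes higher in RV, the lowest without RV replicate 3, and 49 to 80 higher in LV, the lowest without LV replicate 3. Whichever of the 6 KO arrays was left out, 42 genes in each direction stayed called. Without WT RV replicate 3, which enters this contrast only through the shared estimate of spread, 154 and 167 genes were called.

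**Figure D1:**
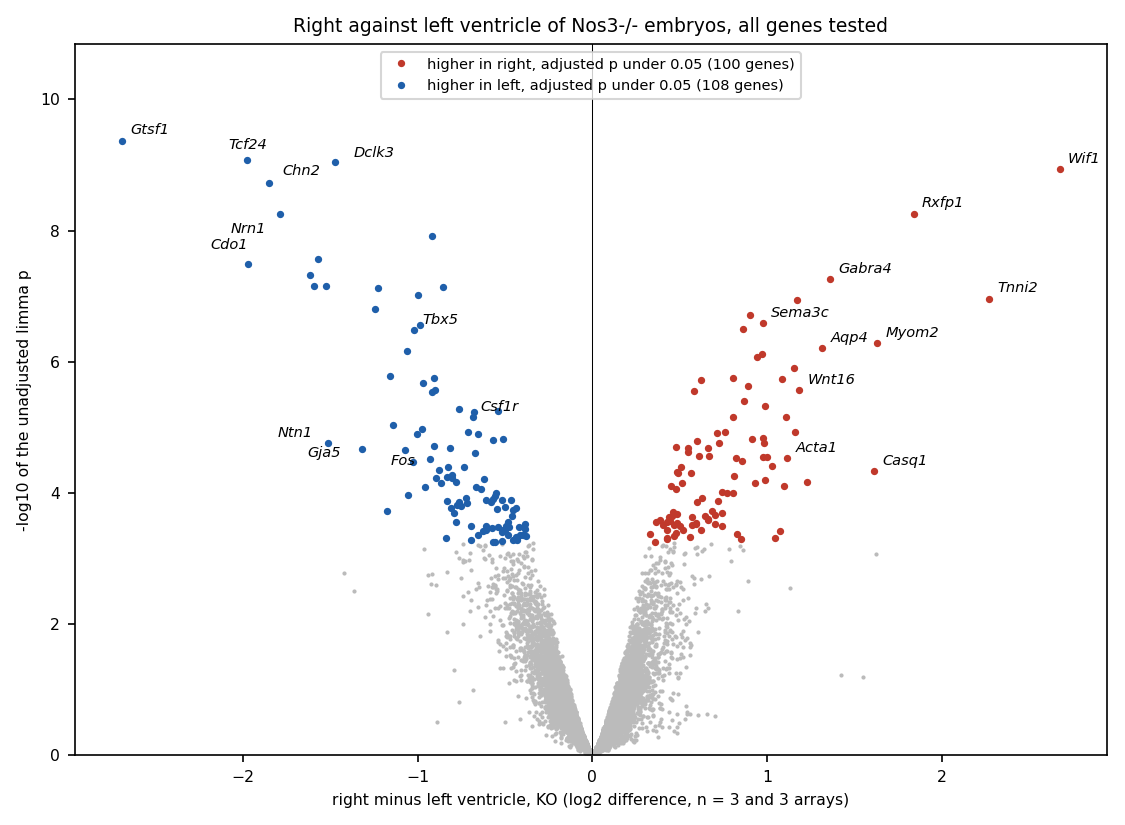
Each point is 1 of 18194 genes, with the log2 difference of right minus left ventricle in KO on the x axis and -log10 of the unadjusted limma p on the y axis. Red points are the 100 genes called higher in RV and blue points the 108 called higher in LV, with Wif1 and Gtsf1 at the far ends.

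The comparison had 5 markers given for it, Wif1, Tnni2, Gtsf1, Tbx5 and Gja5, and all 5 were called. These markers and the gene lists below were chosen with results of these data known, so their calls describe the chambers and do not test the choice. Promoter stretches of 300 bases (250 before to 50 after the RefSeq start, build GRCm38.p6, as written on the gene's strand) are shown for Wif1 and Sema3c, higher in RV, and for Gtsf1 and Gja5, higher in LV. Tnni2 and Tbx5 were also looked up, but no stretch was available for them. Capitals mark exact matches of 5 short motifs on either strand.
Wif1, chr10:121033754-121034053, plus strand: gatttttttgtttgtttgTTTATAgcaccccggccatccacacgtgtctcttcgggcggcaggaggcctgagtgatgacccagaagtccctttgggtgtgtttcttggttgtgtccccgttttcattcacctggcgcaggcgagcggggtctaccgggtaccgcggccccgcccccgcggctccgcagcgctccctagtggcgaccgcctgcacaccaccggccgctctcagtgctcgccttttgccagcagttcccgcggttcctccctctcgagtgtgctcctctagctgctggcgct
Sema3c, chr5:17574566-17574865, plus strand: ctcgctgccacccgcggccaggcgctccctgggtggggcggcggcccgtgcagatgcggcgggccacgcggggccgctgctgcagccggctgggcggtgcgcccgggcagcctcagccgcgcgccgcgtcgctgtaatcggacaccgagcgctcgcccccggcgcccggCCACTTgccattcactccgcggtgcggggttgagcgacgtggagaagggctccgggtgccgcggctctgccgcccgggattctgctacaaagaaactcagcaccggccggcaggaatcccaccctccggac
Gtsf1, chr15:103430378-103430677, minus strand: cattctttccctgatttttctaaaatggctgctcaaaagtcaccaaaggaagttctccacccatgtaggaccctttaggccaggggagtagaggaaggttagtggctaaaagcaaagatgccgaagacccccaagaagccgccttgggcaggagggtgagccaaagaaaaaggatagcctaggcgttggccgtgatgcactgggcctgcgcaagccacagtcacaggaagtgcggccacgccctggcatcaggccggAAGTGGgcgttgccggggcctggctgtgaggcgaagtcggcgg
Gja5, chr3:97032152-97032451, plus strand: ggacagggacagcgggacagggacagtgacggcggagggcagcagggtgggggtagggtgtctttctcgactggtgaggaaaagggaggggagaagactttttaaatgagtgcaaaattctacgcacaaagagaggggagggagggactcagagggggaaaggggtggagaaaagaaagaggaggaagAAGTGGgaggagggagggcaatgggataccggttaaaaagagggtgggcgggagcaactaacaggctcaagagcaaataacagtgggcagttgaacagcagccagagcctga
The motifs searched were a T-box core (AGGTGTGA, in 1.28% of 32851 RefSeq promoters of this length), a GATA core (AGATAA, 11.2%), an NK2 core (AAGTGG, 16.9%), an E-box (CAGCTG, 16.3%) and a TATA box (TATAAA, 13.6%). Gja5 and Gtsf1 held an NK2 match on the plus strand of the gene, at bases 189 to 194 and 258 to 263, and Sema3c one on the minus strand at bases 170 to 175. Wif1 held a TATA match on the minus strand at bases 19 to 24. These matches are letters in a window and say nothing of binding.

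Wif1, a secreted protein that binds Wnt ligands and blocks them, had the largest difference towards RV. It read 4.87, 5.28 and 5.16 in LV, below the median of all values, and 7.77, 7.60 and 7.97 in RV. The difference was 2.68 (5.10 ± 0.21 against 7.78 ± 0.19, SD, n = 3 each, SE 0.19, adjusted p = 5.28e-06), and the groups lay far apart. Tnni2, the inhibitory troponin subunit of fast skeletal muscle, read 8.21, 8.08 and 8.47 in LV and 10.28, 10.36 and 10.93 in RV, a difference of 2.27 (SE 0.23, adjusted p = 0.00011). A second probe set of Tnni2 above the median of all values gave 1.84 and a dim one 0.30. Both genes stayed called without any 1 KO array.

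Gtsf1, known from the piRNA pathway of germ cells, had the largest difference towards LV. It read 13.16, 12.90 and 13.16 in LV and 10.70, 10.09 and 10.34 in RV, a difference of -2.70 (13.07 ± 0.15 against 10.38 ± 0.31, SD, n = 3 each, SE 0.17, adjusted p = 5.28e-06). No RV value came within 2 units of the LV values. Another probe set of Gtsf1, dimmer than the median of all values, gave -0.65. Tbx5 read 9.56, 9.81 and 10.01 in LV and 8.89, 8.80 and 8.63 in RV (difference -1.02, SE 0.11, adjusted p = 0.000242), and its second, dim probe set gave -0.48. Gja5, connexin 40 of atrial and trabecular muscle, was the most variable of the 5 among LV arrays, at 5.98, 5.48 and 6.67, against 4.64, 4.67 and 4.86 in RV. It was dim, with LV replicate 2 and every RV array below the median of all values. Its difference of -1.32 (SE 0.21, adjusted p = 0.00543) ran from -1.60 to -1.01 when 1 KO array was left out and was always called.

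**Figure D2:**
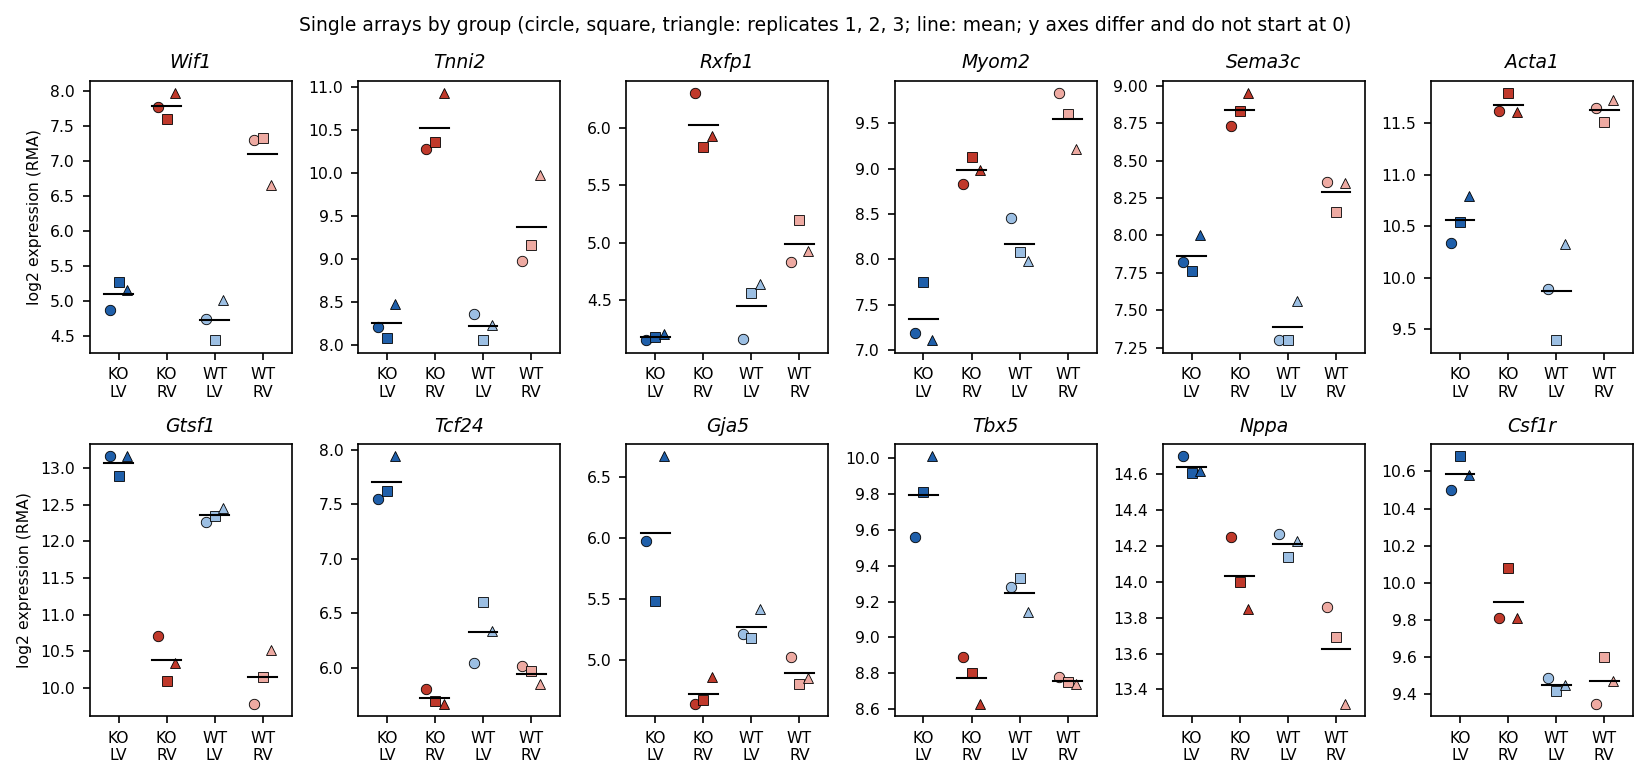
Log2 expression (y axis, scales differing between panels) of 12 genes on each of the 12 arrays, in KO and WT left and right ventricle (x axis). Circles, squares and triangles are replicates 1, 2 and 3 and lines are group means; the 3 KO right and 3 KO left values do not overlap in any panel.

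Genes of left ventricle identity were largely higher in LV. Of 6 measured genes 4 were called higher in LV and 0 in RV, with a list median of -0.72 against -0.00 over all genes. Beside Tbx5 and Gja5 these were Cited1, a transcriptional co-regulator, and Nppa, atrial natriuretic peptide, which the embryonic trabeculae also make. Cited1 read 12.78, 12.66 and 13.16 in LV and 12.33, 11.92 and 11.86 in RV (difference -0.83, SE 0.16, adjusted p = 0.0194). Nppa read 14.70, 14.61 and 14.62 in LV and 14.25, 14.00 and 13.85 in RV (difference -0.61, SE 0.13, adjusted p = 0.037). In both genes the chambers did not overlap, and RV replicate 1 was the RV array nearest to LV. Their calls depended on single arrays. That of Cited1 was lost without LV replicate 1 or 3 or RV replicate 2 or 3, and that of Nppa without any KO array but RV replicate 1, with differences from -0.98 to -0.68 and from -0.72 to -0.52.

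The other 2 genes of that list were not called. Hand1 read 7.06, 6.97 and 7.25 in LV and 6.76, 7.08 and 6.72 in RV (difference -0.24, adjusted p = 0.637), with RV replicate 2 inside the LV range. Nppb, brain natriuretic peptide, was at 12.52 to 12.75 in LV and 12.32 to 12.87 in RV (difference 0.03, adjusted p = 0.975). Gja5, Tbx5 and Nppa also stand in the list of atrial muscle. Its 16 measured genes held 1 called higher in RV (2 with either replicate block) and these 3 higher in LV, and its summed level was 16.20 to 16.26 in LV and 16.14 to 16.26 in RV (exact permutation p = 0.9). Myl7, the atrial myosin light chain, read 13.57, 13.54 and 13.75 in LV and 14.02, 14.12 and 14.18 in RV (difference 0.49, adjusted p = 0.0273), a call lost with median centring and without any KO array but LV replicate 3. Sln, sarcolipin of atrial muscle, read 5.21, 6.03 and 6.10 in LV and 6.86, 7.82 and 7.54 in RV and was not called (difference 1.63, adjusted p = 0.0632, and 0.019 with the fixed replicate block).

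Of 15 measured genes of right ventricle and outflow tract identity 1 was called higher in RV and 0 in LV, with a median of -0.07. Over all genes 0.550% and 0.594% were called. The chambers did not overlap for 4 of the 15, 2 in each direction, against 19.7% of all genes. The called gene was Sema3c, a guidance signal of the outflow tract and its neural crest. It read 7.82, 7.76 and 8.00 in LV and 8.73, 8.83 and 8.95 in RV, a difference of 0.98 (SE 0.10, adjusted p = 0.000215) that stayed called without any 1 KO array. A dimmer probe set of Sema3c gave 0.31. Hand2, the factor without which no right ventricle forms, read 10.97, 10.86 and 11.04 in LV and 10.96, 10.99 and 11.10 in RV (difference 0.06, adjusted p = 0.874). Mef2c read 9.88, 10.01 and 10.03 in LV and 9.80, 9.91 and 9.80 in RV (difference -0.14, adjusted p = 0.857). The transcripts of the progenitor field were at or below 4.72 in every KO array, with differences of 0.01 for Isl1, 0.26 for Fgf8, -0.22 for Fgf10 and -0.07 for Tbx1, as was Tdgf1 (0.10). The outflow signals Bmp4 (0.07), Bmp7 (0.11), Rspo3 (-0.14) and Wnt11 (-0.23), the factor Tbx2 (-0.46) and the semaphorin receptors Nrp2 (-0.27) and Plxna4 (-0.08) had adjusted p from 0.343 to 0.905.

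Of 6 cardiac T-box factors measured, Tbx5 and Tbx18 were called higher in LV (3 factors with either replicate block) and 0 in RV, and the differences of all 6 were negative, with a median of -0.46. Tbx18, a factor of the epicardium and of part of the left ventricular wall, read 10.28, 10.26 and 10.42 in LV and 9.51, 9.39 and 9.49 in RV (difference -0.86, SE 0.08, adjusted p = 8.57e-05), with a second probe set at -0.97. Tbx3 (-0.47), Tbx2 (-0.46), Tbx20 (-0.46) and Tbx1 (-0.07) were not called. Among 20 core cardiac factors 1 was called, Meis2, a homeobox factor, at 9.73 to 9.80 in LV and 10.21 to 10.28 in RV (difference 0.49, adjusted p = 0.00976). Its 3 other probe sets gave 0.55 to 0.88, and the call was lost without LV replicate 2 or RV replicate 2 or 3 (0.47 to 0.51). Nkx2-5 (-0.20), Gata4 (-0.08) and Gata6 (-0.02) were not called, and none of 6 Iroquois factors was, with Irx3 at -0.41 and Irx6 at 0.35.

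A few contractile genes were higher in RV. Of 30 sarcomere genes 3 were called higher in RV and 0 in LV, and the median was 0.10. All RV values lay above all LV values for 15, against 9.24% of all genes, and below them for 0. Myom2, the M-band protein that ties myosin filaments together, read 7.19, 7.75 and 7.11 in LV and 8.83, 9.13 and 8.98 in RV (difference 1.63, SE 0.19, adjusted p = 0.000364), and its 2 other bright probe sets gave 1.28 and 1.42. Acta1, skeletal alpha-actin, which fetal heart muscle shares, read 10.34, 10.54 and 10.79 in LV and 11.62, 11.79 and 11.61 in RV (difference 1.12, SE 0.18, adjusted p = 0.00662). Both were called without any 1 KO array. Myl7 was the remaining member called. Ankrd1 (0.38) and Myoz2 (0.36) did not overlap without being called, and Actc1 (0.01), Myl2 (0.00), Myh7 (-0.04) and Mybpc3 (0.04) were not called. Actc1, Myl2 and Myh7 read near the top of the scale, where a difference may not show. The list median ran from 0.06 to 0.13 when 1 KO array was left out.

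A few genes named for skeletal muscle were also higher in RV. Of 28 measured genes 3 were called higher in RV and 0 in LV, and the median was -0.08. Beside Tnni2 these were Casq1, the calcium store protein of fast muscle, and Ckm, muscle creatine kinase. Casq1 read 8.84, 8.67 and 9.51 in LV and 10.46, 10.59 and 10.81 in RV (difference 1.61, SE 0.28, adjusted p = 0.00945), with LV replicate 3 the highest LV array. That call was lost without LV replicate 2 or RV replicate 3, at differences between 1.45 and 1.86. Ckm read 11.06, 11.18 and 11.04 in LV and 11.91, 12.12 and 12.04 in RV (difference 0.93, adjusted p = 0.0123). Leaving out 1 KO array left 1 to 3 members of the list called, 3 only without RV replicate 1 and 1 without RV replicate 3. Defining genes of skeletal muscle were not called. Myod1 (-0.09) read 4.06 to 4.38 and Myh8 (-0.14) 4.36 to 5.10 over the 6 KO arrays, all below the median of all values, as was Myog (0.03) at 4.65 to 5.64. Myh3 (-0.76) was high in LV replicate 2 alone, at 8.34 against 6.14 to 6.42 on the other KO arrays. Mylpf (0.07) read 7.63 to 8.35 and Tnnc2 (-0.34) 6.03 to 7.27 over the 6 KO arrays. Both were above the median of all values and not called, and Tnnc2 was highest in LV replicate 2. The summed level of the list was 15.37 to 15.41 in LV and 15.49 to 15.54 in RV. Bright members weigh most in that sum. Over the KO arrays Tnni1, also in the sarcomere list, read 14.39 to 14.48 and Tnnt1 13.21 to 13.55. Of the 28 differences 12 were positive and 16 negative.

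In calcium handling 1 of 19 genes, Casq1, was called higher in RV and 0 in LV (2 higher in RV with either replicate block), with a median of 0.11. Ryr2, the release channel of heart muscle, was at 0.56 and Hrc at 0.36, neither called, and Atp2a2 at 0.07. Potassium and pacemaker channels went both ways. Kcne1, a regulatory channel subunit, read 10.54, 10.53 and 10.45 in LV and 10.94, 10.97 and 11.40 in RV (difference 0.60, adjusted p = 0.0198, another probe set 0.31), a call kept only without RV replicate 1 or 2 among the 6 left out in turn. Kcnk3, a background potassium channel, read 8.25, 8.51 and 8.77 in LV and 7.57, 7.20 and 7.33 in RV (difference -1.14, SE 0.17, adjusted p = 0.0033), called without any 1 KO array, and another bright probe set gave -0.46. The other 15 of the 17 measured were not called, and with either replicate block 2 were called higher in LV.

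Genes of oxidative phosphorylation gave small positive differences over the whole list, of which 1 passed the test. Of 40 genes of oxidative phosphorylation 1 was called higher in RV (3 with the random replicate block) and 0 in LV, yet 37 had all RV values above all LV values, against 9.24% of all genes. These genes share the arrays and do not count as independent. The differences of all 40 were positive, from 0.05 for Atp5b to 0.65 for Cox7a1, with a median of 0.18 (0.16 to 0.20 without 1 KO array). Cox6a2, the muscle form of a cytochrome c oxidase subunit, read 12.20, 12.20 and 12.13 in LV and 12.76, 12.79 and 12.85 in RV (difference 0.62, SE 0.08, adjusted p = 0.000956). Cox7a1, another muscle form, read 11.29, 11.13 and 11.31 in LV and 11.69, 11.61 and 12.37 in RV and was not called (adjusted p = 0.195), with RV replicate 3 alone far up. Pairs of like-numbered arrays gave list medians of 0.145, 0.15 and 0.215. Summed, the list stood at 18.70 to 18.72 in LV and 18.86 to 18.91 in RV.

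Of 25 genes of fatty acid uptake and oxidation 3 were called higher in RV and 0 in LV, and the median was 0.22. The chambers did not overlap for 16 towards RV, against 9.24% of all genes, and for 0 towards LV. With the fixed replicate block 1 member was called, and without 1 KO array 0 or 1. Cd36, the fatty acid transporter of the cell surface, read 10.07, 10.33 and 10.24 in LV and 10.61, 10.92 and 10.99 in RV (difference 0.63, SE 0.12, adjusted p = 0.0182), and its other bright probe sets gave 0.55 and 0.66. Etfa, which passes electrons from fatty acid oxidation to the respiratory chain, read 12.19 to 12.27 in LV and 12.55 to 12.64 in RV (difference 0.36, adjusted p = 0.0327). The call of Etfa was lost with the fixed replicate block (adjusted p = 0.0588) and without any 1 KO array (0.34 to 0.39). Acadm, the medium-chain acyl-CoA dehydrogenase, differed by 0.33 (adjusted p = 0.0412, and 0.074 with the fixed replicate block), and the regulators Ppara (0.34) and Ppargc1a (0.00) were not called. In glycolysis and hypoxia 1 of 29 was called, Eno3, the muscle enolase, at 12.26 to 12.28 in LV and 12.83 to 12.89 in RV (difference 0.58, SE 0.08, adjusted p = 0.00125). The glycolytic genes Gapdh (-0.01), Ldha (0.03) and Pkm (-0.02) were not called. Of the 29 differences 21 were positive and 8 negative, with a median of 0.05. The chambers did not overlap for 8 towards RV and 2 towards LV, against 9.24% and 10.4% of all genes. Summed, the 29 genes stood at 17.12 to 17.15 in LV and 17.18 to 17.24 in RV.

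**Figure D3:**
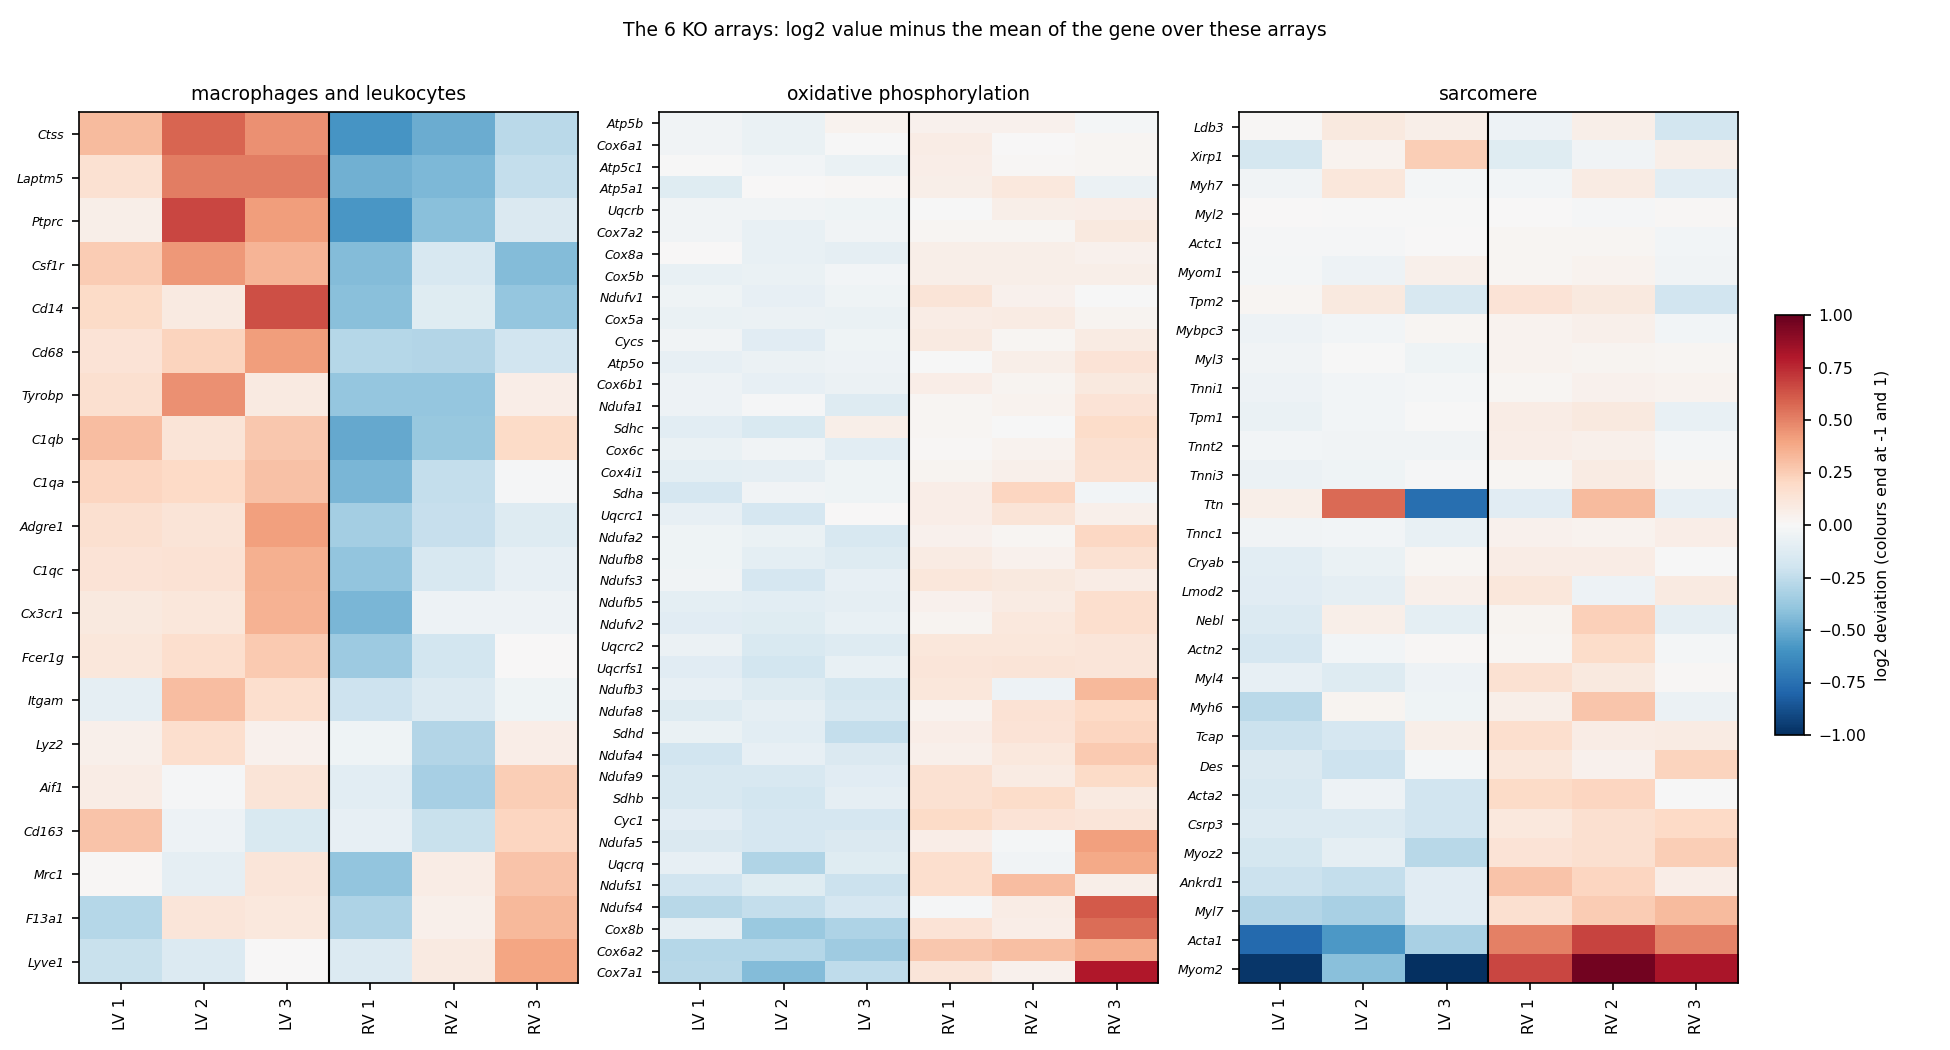
Rows are the measured genes of 3 lists and columns the 6 KO arrays, coloured by the log2 value minus that gene's mean over these arrays (red above, blue below, colours end at -1 and 1). Most macrophage genes are red in the LV columns, nearly all genes of oxidative phosphorylation are red in the RV columns, and the sarcomere list is strongly coloured mainly in Myom2, Acta1 and Ttn.

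Wnt genes were called in both directions. Of 43 ligands, antagonists and targets 1 was called higher in RV and 2 in LV, with a median of -0.12. Wif1 was the one higher in RV. Sfrp5, another secreted Wnt antagonist, was higher in LV, at 6.29, 6.42 and 6.92 against 5.86, 5.72 and 5.57 in RV (difference -0.83, SE 0.14, adjusted p = 0.00838). That call was lost without RV replicate 3, and a second bright probe set of Sfrp5 gave 0.12, so its direction rests on 1 probe set. Wnt5a, a ligand that acts mostly outside the beta-catenin route, read 9.92, 9.87 and 9.88 in LV and 9.22, 9.11 and 9.04 in RV (difference -0.77, SE 0.15, adjusted p = 0.0199). Its 2 other bright probe sets gave -0.81 and -0.67, but it was no longer called when any 1 KO array was left out (-0.81 to -0.72). Wnt16, a ligand not in the list, read 5.68, 5.27 and 5.81 in LV and 6.95, 6.75 and 6.61 in RV (difference 1.18, SE 0.16, adjusted p = 0.00124). Of the targets of the beta-catenin route, Axin2 (-0.32), Lef1 (-0.50) and Apcdd1 (-0.62) were not called. Nkd1 (-0.08), Lgr5 (0.13), Nkd2 (0.20) and Notum (0.23) of the same list were not called either.

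Guidance genes held 1 member called higher in RV, Sema3c, and 1 higher in LV, Ntn1, among 28, with a median of -0.11. The chambers did not overlap for 12 towards LV, against 10.4% of all genes. Ntn1, netrin-1, read 11.17, 11.44 and 11.53 in LV and 10.00, 9.93 and 9.66 in RV (difference -1.52, SE 0.24, adjusted p = 0.00483), and its second, dim probe set gave -0.20. Robo1, a Slit receptor, read 8.00, 7.94 and 8.20 in LV and 8.71, 8.97 and 9.14 in RV and was not called (0.89). The other signalling lists each held 0 or 1 called genes, where 1.14% of all genes were called. Of 39 genes of BMP and TGF-beta signalling 0 were called (6 at an unadjusted limma p under 0.05, which 10.3% of all genes reached, and 1 higher in LV with the random replicate block), and of 16 of retinoic acid 0 (1 unadjusted, 0 with either replicate block). In Notch signalling 1 of 20 was called, Dlk1, a non-canonical ligand, at 8.48, 8.70 and 8.50 in LV and 7.79, 7.90 and 8.02 in RV (difference -0.66, adjusted p = 0.0423), lost without any 1 KO array (-0.71 to -0.59). Its second, dim probe set gave 0.05. In FGF, neuregulin and IGF signalling 1 of 31 was called (2 with either replicate block), Igfbp2, which binds insulin-like growth factors, at 9.36, 9.30 and 9.60 in LV and 8.54, 8.28 and 8.68 in RV (difference -0.92, SE 0.12, adjusted p = 0.00126).

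In the pathway that Nos3 feeds, 1 of 26 nitric oxide and cyclic GMP genes was called (2 higher in LV with the fixed replicate block). Npr2, the receptor guanylyl cyclase of C-type natriuretic peptide, read 7.72, 7.63 and 7.82 in LV and 7.32, 7.24 and 7.21 in RV (difference -0.47, SE 0.09, adjusted p = 0.0188), a call kept only without LV replicate 2 among the KO arrays left out in turn. The soluble cyclase subunits Gucy1a1 (-0.41) and Gucy1b1 (0.01), the phosphodiesterases Pde5a (-0.18) and Pde3a (0.14), the kinase Prkg1 (-0.08) and the other synthases Nos1 (0.27) and Nos2 (0.17) were not called. The list median was -0.01. Among 23 genes known for septal and valve defects Tbx5 alone was called (2 genes higher in LV with either replicate block), with a median of -0.08.

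Rxfp1, Gabra4, Aqp4, Col2a1, Frmd5 and Pak3 were further single genes called higher in RV with differences of at least 1. Rxfp1, the relaxin receptor, read 4.15, 4.18 and 4.21 in LV, near the low end of the scale, and 6.30, 5.83 and 5.93 in RV (difference 1.84, SE 0.14, adjusted p = 1.47e-05). Gabra4, a subunit of the GABA-A receptor, read 6.65, 6.55 and 6.95 in LV and 7.96, 7.93 and 8.34 in RV (difference 1.36, SE 0.13, adjusted p = 8.37e-05), with its other probe set at 0.86. Aqp4, a water channel, read 7.79, 7.87 and 8.05 in LV and 9.11, 9.28 and 9.27 in RV (difference 1.32, adjusted p = 0.000416), with other probe sets at 1.26 and, a dim one, 0.23. In each the RV arrays stood together above the LV arrays. Col2a1, a fibrillar collagen best known from cartilage, read 5.60 to 5.72 in LV and 6.77 to 6.88 in RV (1.17, adjusted p = 0.000111). Frmd5, a FERM-domain protein, differed by 1.16 and Pak3, a kinase activated by small GTPases, by 1.15, from 6.63 to 7.07 in LV to 7.91 to 8.09 in RV for the latter, whose 3 other probe sets gave 0.14 to 0.89. Every gene of this paragraph stayed called without any 1 KO array.

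Towards LV the largest differences after Gtsf1 were those of Tcf24 and Cdo1. Tcf24, a helix-loop-helix factor, read 7.55, 7.62 and 7.94 in LV and 5.81, 5.70 and 5.67 in RV (difference -1.98, SE 0.13, adjusted p = 5.28e-06). Cdo1, cysteine dioxygenase, read 8.79, 8.97 and 9.24 in LV and 7.21, 7.01 and 6.86 in RV (difference -1.97, SE 0.18, adjusted p = 5.84e-05). In both the LV and RV arrays were more than 1 unit apart. Chn2, a GTPase-activating protein for Rac, differed by -1.85 (SE 0.13, adjusted p = 6.84e-06) and Nrn1, neuritin, by -1.79 (SE 0.14, adjusted p = 1.47e-05). Lypd6b followed at -1.62, Tmem88b at -1.59, Lgals3, galectin-3, at -1.57, Adamdec1, a metalloprotease of macrophages, at -1.53 and Dclk3, a kinase, at -1.48, with adjusted p from 5.28e-06 to 8.57e-05. Dclk3 was dim on all arrays, at 5.34 to 5.73 in LV and 4.01 to 4.11 in RV. All of these were called without any 1 KO array.

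Trabecular and compact muscle genes had medians below 0. Of 20 trabecular and conduction genes 2 were called higher in LV, Gja5 and Nppa, and 1, Kcne1, in RV, with a median of -0.17. The chambers did not overlap for 8 towards LV, against 10.4% of all genes. Of 12 compact muscle genes 0 were called (5 at an unadjusted limma p under 0.05, against 10.3% of all genes, and 1 higher in LV with either replicate block), and 7 did not overlap towards LV and 0 towards RV, against 10.4% of all genes. Their median was -0.22 (-0.25 to -0.16 without 1 KO array), with Tbx20 at -0.46, Tcf4 at -0.38, Prdm16 at -0.34 and Hey2 at 0.02. In cell cycle genes 0 of 29 were called (3 unadjusted, 0 with either replicate block) and the median was -0.07. The chambers did not overlap for 8 of the 29 towards LV and 2 towards RV, against 10.4% and 9.24% of all genes. Summed, cell cycle genes stood at 15.98 to 16.03 in LV and 15.87 to 15.92 in RV.

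Several macrophage transcripts were higher in LV. Of 20 genes of macrophages and leukocytes 3 were called higher in LV and 0 in RV (5 with the fixed and 8 with the random replicate block). The chambers did not overlap for 12 towards LV, against 10.4% of all genes, and the list median was -0.45 (-0.51 to -0.33 without 1 KO array). Ctss, cathepsin S, read 9.89, 10.15 and 10.03 in LV and 8.98, 9.07 and 9.30 in RV (difference -0.91, SE 0.11, adjusted p = 0.000945). Csf1r, the receptor that macrophages need to survive, read 10.50, 10.68 and 10.58 in LV and 9.81, 10.08 and 9.81 in RV (difference -0.69, SE 0.10, adjusted p = 0.00257), and its other bright probe sets gave -0.57 and -0.10. Cd68 differed by -0.52 (adjusted p = 0.0486). Ptprc (-0.76), Laptm5 (-0.78), Adgre1 (-0.47) and the complement genes C1qa, C1qb and C1qc (-0.47 to -0.43) had no call, and the resident-type markers Mrc1 (-0.03) and Lyve1 (0.23) were near 0 or above. The summed level of the list was 12.56, 12.72 and 12.68 in LV and 12.03, 12.16 and 12.33 in RV (two-sided exact permutation p = 0.1, the smallest that 3 against 3 arrays allow). In pooled tissue fewer macrophages and less RNA per macrophage cannot be told apart, here and for every cell type below.

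Mesenchymal and epicardial lists also had medians below 0, and each held 1 call in each direction, where 1.14% of all genes were called. Of 29 genes of valve and interstitial mesenchyme 1 was called higher in LV and 1 in RV (4 and 1 with the fixed replicate block). The chambers did not overlap for 14 towards LV, against 10.4% of all genes, and the list median was -0.33 (-0.43 to -0.20 without 1 KO array). Fbln1, a matrix protein of the cushions, read 9.05, 9.14 and 9.57 in LV and 8.07, 8.31 and 8.51 in RV (difference -0.96, SE 0.17, adjusted p = 0.0135). Its other bright probe sets gave -0.60 and -0.13, and the call was lost without LV replicate 3 or RV replicate 1 or 2 (-1.06 to -0.80). Pdgfra (-0.73), Col1a1 (-0.64), Dcn (-0.56) and Col3a1 (-0.42) were not called, and Col2a1 was the member higher in RV. Summed, the list stood at 15.72 to 15.89 in LV and 15.27 to 15.65 in RV. Of 15 epicardial genes Tbx18 was called higher in LV and Krt8, a keratin of simple epithelia, in RV, at 7.79, 7.42 and 7.70 against 8.37, 8.28 and 8.37 (difference 0.70, adjusted p = 0.0273, called without 1 KO array only in the case of LV replicate 1). The defining epicardial genes Wt1 (-0.21), Tcf21 (-0.42) and Upk3b (-0.09) were not called, and the list median was -0.24.

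Endothelial, endocardial, smooth muscle and erythroid lists held no called gene. Of 29 endothelial genes 0 were called (4 at an unadjusted limma p under 0.05, against 10.3% of all genes, and 0 with either replicate block), with a median of -0.10. The chambers did not overlap for 7 of the 29 towards LV and 1 towards RV, against 10.4% and 9.24% of all genes. Their summed level was 14.94 to 15.03 in LV and 14.83 to 14.89 in RV. Of 11 endocardial genes 0 were called (2 unadjusted, 0 with either replicate block), with a median of -0.12. Among smooth muscle and pericyte genes 0 of 14 were called (3 unadjusted, 0 with either replicate block), but 5 did not overlap towards RV, against 9.24% of all genes. The summed level of the 14, in which bright members weigh most, was 14.72 to 14.77 in LV and 14.89 to 15.02 in RV. Of the 14 differences 7 were positive and 7 negative, with a median of 0.01. Erythroid genes (0 of 15 called, 1 unadjusted, 0 with either replicate block) summed to 15.03 to 15.27 in LV and 14.96 to 15.17 in RV. Liver and lung transcripts varied widely between pools. Afp, of fetal liver, read 8.75, 6.40 and 7.85 in LV and 10.15, 8.51 and 8.99 in RV and was not called (difference 1.55, adjusted p = 0.535), and the summed level of the 14 genes was 9.25 to 10.23 in LV and 10.18 to 11.30 in RV (exact permutation p = 0.2). The part of liver RNA in the other differences was not tested. Of the immediate early and heat shock genes, induced within minutes of stress, 1 of 25 was called (2 with the fixed replicate block), with a median of -0.18. The chambers did not overlap for 10 towards LV, against 10.4% of all genes. Fos read 7.99, 8.24 and 8.39 in LV and 7.63, 7.27 and 7.04 in RV (difference -0.89, SE 0.16, adjusted p = 0.0111), and Egr1 was at -0.61 without a call. The call of Fos was lost without LV replicate 2 or 3 or RV replicate 2 or 3 (-1.05 to -0.76).

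**Figure D4:**
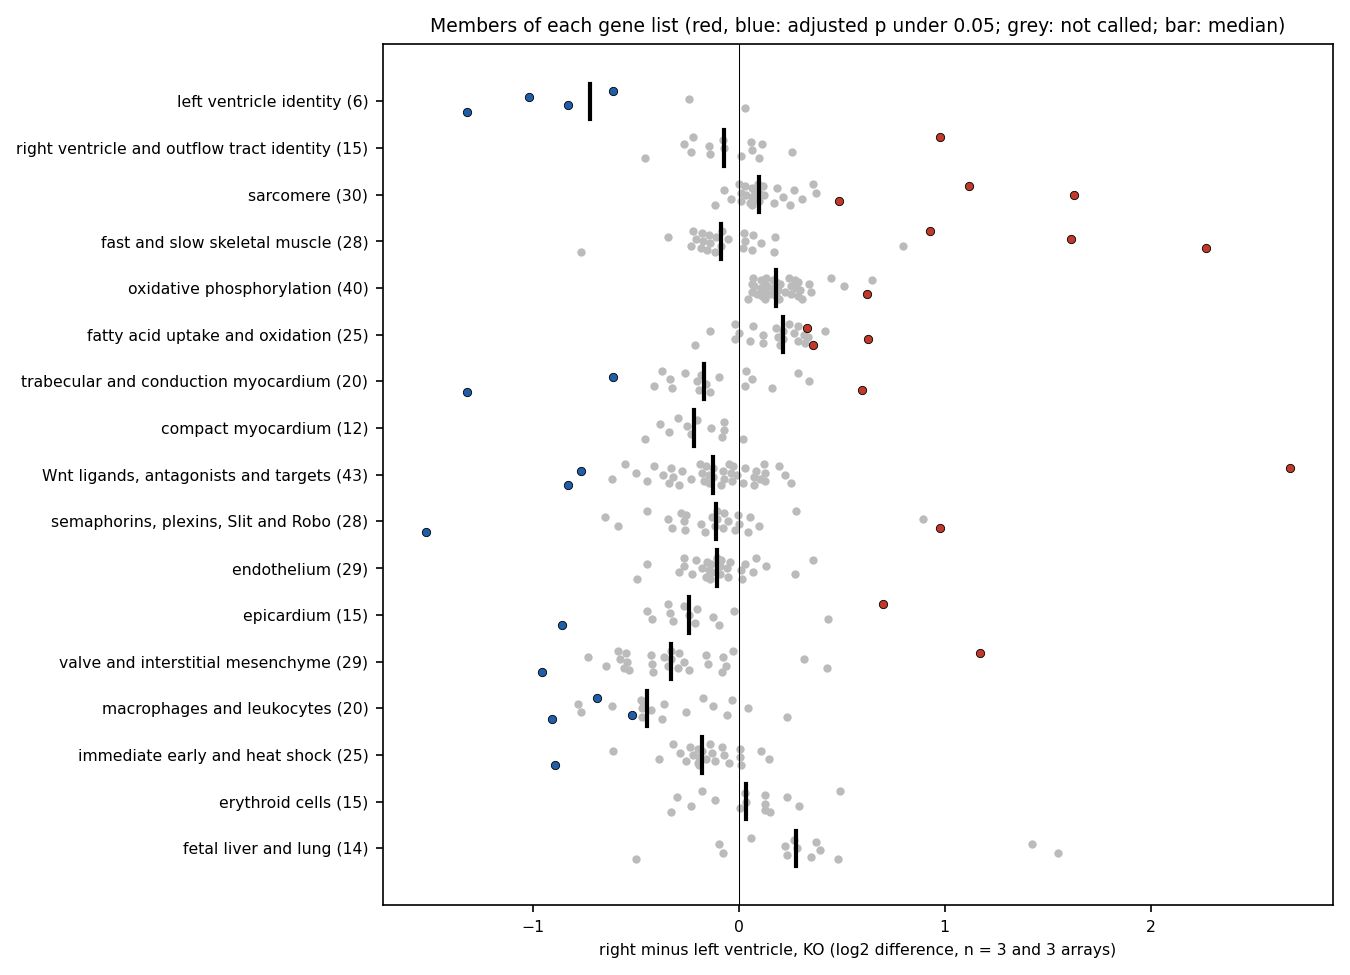
Each point is a measured gene of the list named on the y axis (number measured in brackets), at its log2 difference of right minus left ventricle in KO. Red and blue points are called higher in RV and LV, grey points are not called and black bars are list medians, which among the lists drawn lie furthest left for left ventricle identity and for macrophages.

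The same contrast in WT embryos asked whether the chamber differences recur in the wild-type strain. The WT differences share no array with those of KO, but the p-values of both contrasts rest on the same estimate of spread. Genes called in both genotypes are therefore not independent calls. In WT 139 genes were called higher in RV and 40 higher in LV (0.764% and 0.220% of genes). A fit on only the 6 WT arrays called 29 higher in RV and 12 higher in LV. Both genotypes called 42 genes higher in RV, which is 42.0% of the KO and 30.2% of the WT calls, and 19 higher in LV, 17.6% and 47.5%. No gene was called in opposite directions. WT gave a positive difference for 98 of the 100 genes called higher in RV in KO, against 60.7% of all genes, and a negative one for 88 of the 108 called higher in LV, against 38.5%. In WT 77 and 39 of them had no overlap between chambers, against 10.9% and 4.85% of all genes. Their median WT differences were 0.50 and -0.23, beside 0.05 over all genes. Conversely, genes called in WT had median KO differences of 0.36 and -0.38, and 128 of 139 and 36 of 40 had the same sign in KO. Without WT RV replicate 3 1169 and 565 WT genes passed (6.43% and 3.11%, 9.53% together), and shared calls with KO were 52 and 27. In that setting chamber and poly-A control level cannot be told apart in WT.

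Among the markers Wif1 differed by 2.36 in WT (adjusted p = 3.53e-05) and Gtsf1 by -2.21 (adjusted p = 3.53e-05). Tnni2 differed by 1.16 in WT (adjusted p = 0.0294), where RV replicate 3 read 9.98 and the others 8.97 and 9.16. Tbx5 was at -0.49 in WT (adjusted p = 0.0564) and Gja5 at -0.38 (adjusted p = 0.372), neither called. The difference between the genotypes was not called for any of the 5 (interaction adjusted p from 0.314 to 0.598). Without WT RV replicate 3 it was called for Tnni2 (adjusted p = 0.022) and WT Tbx5 was called (adjusted p = 0.0328). Macrophage genes had a WT median of -0.02 (-0.11 without WT RV replicate 3), with 0 of 20 called (also 0 without that array), and summed levels of 11.94 to 11.99 in LV and 11.75 to 12.06 in RV. For Ctss the WT difference was -0.17 and for Csf1r 0.02, with interactions of -0.73 and -0.71 that were not called (adjusted p = 0.314 and 0.211, and 0.0365 and 0.0252 without WT RV replicate 3). Oxidative phosphorylation had a WT median of 0.06 with 1 gene called higher in RV, and 0.02 with 3 called without WT RV replicate 3. The sarcomere list had a WT median of 0.23 with 3 called higher in RV, and 0.32 with 14 called without that array.

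**Figure D5:**
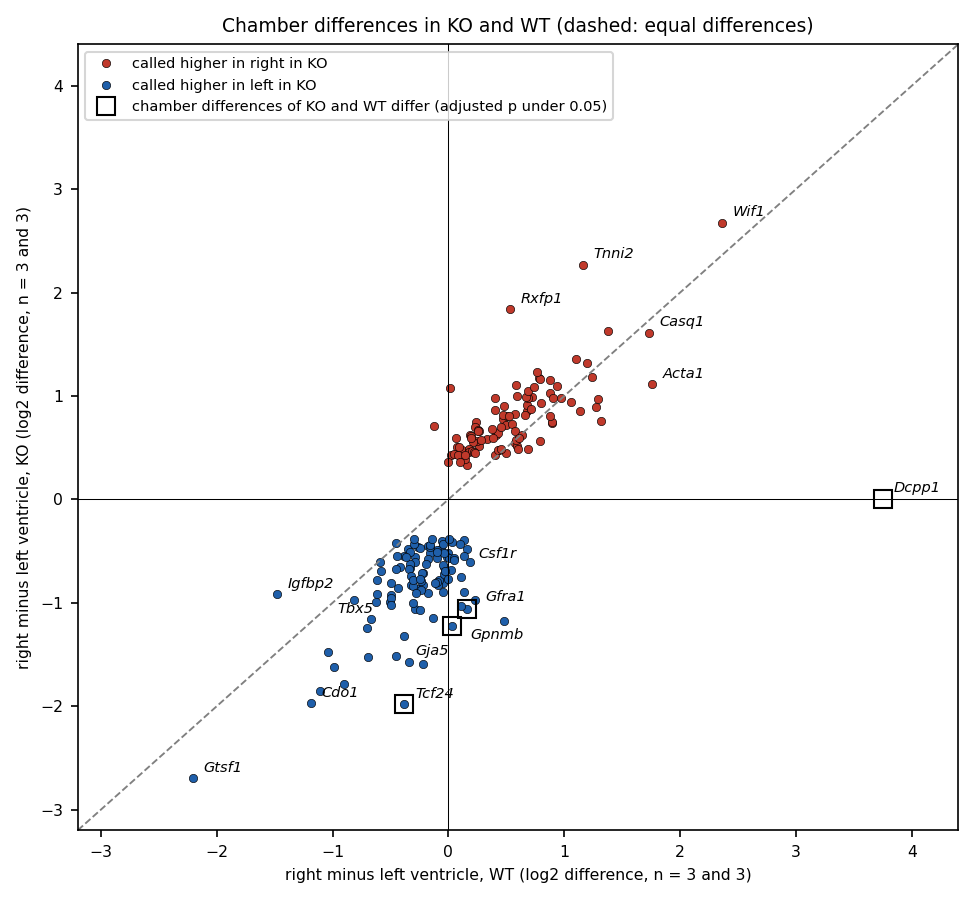
Log2 difference of right minus left ventricle in WT (x axis) and KO (y axis) for genes called in KO, red higher in RV and blue higher in LV, with the dashed line marking equal differences. Open squares mark the 4 genes whose difference was itself different between genotypes, among them Dcpp1 at 3.75 in WT and 0.01 in KO.

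The interaction of genotype and ventricle was called for 4 genes (0.0220% of those tested), all with a lower RV minus LV difference in KO. Allele and strain cannot be told apart in it. Tcf24 had an interaction of -1.60 (SE 0.19, adjusted p = 0.00784), with -0.38 in WT, where LV read 6.04, 6.60 and 6.34 and RV 6.02, 5.97 and 5.85. Gpnmb, a membrane glycoprotein of macrophages, read 6.87, 7.17 and 6.76 in KO LV and 5.66, 5.63 and 5.83 in KO RV, while all 6 WT arrays lay between 5.54 and 5.84 (interaction -1.25, SE 0.17, adjusted p = 0.0208). Gfra1, a receptor for glial cell line-derived factor, read 6.33 to 6.89 in KO LV and 5.38 to 5.67 on the other 9 arrays (interaction -1.22, SE 0.17, adjusted p = 0.0332). Dcpp1, a secreted protein of glands, was at 3.88 to 4.22 on all KO arrays, whereas WT read 5.23, 5.33 and 5.73 in LV and 8.59, 9.15 and 9.80 in RV (interaction -3.74, SE 0.32, adjusted p = 0.00033). In Gpnmb and Gfra1 only the KO LV arrays stood out, and in Dcpp1 only the WT arrays differed by chamber. Other, dim probe sets of Gpnmb (0.01) and Gfra1 (-0.20 and -0.18) showed no such KO difference. Without WT RV replicate 3 the interaction was called for 1309 genes, 499 positive and 810 negative. In that setting chamber and poly-A control level cannot be told apart in WT. With the fixed replicate block the interaction was called for 1 gene, Dcpp1, and with the random block for 9, which included all 4.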

How the data were processed

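RNA of pooled ventricles was hybridised to 12 Affymetrix arrays, 3 in each of 4 groups. The deposited values are log2 expression, made by the authors with RMA, per the submitters' processing notes, and range from 2.42 to 15.19. Annotation gave 34958 of 45101 probe sets 1 symbol, 932 several and 9211 none, and those with several or none were not used here. Each of 18194 genes was taken from its probe set with the highest mean over the 12 arrays. No detection calls were used. The number of arrays limits the precision.

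A model with 4 group means was fitted on all 12 arrays with limma 3.58.1 in R 4.3.3 (lmFit, eBayes), and RV minus LV in KO was tested two-sided with Benjamini-Hochberg adjustment over all genes, threshold 0.05. The same fit gave the WT contrast and the interaction. Summed levels are log2 of the sum of a list's linear values, tested with exact permutation tests (scipy 1.17.1), whose smallest p is 0.1. In data simulated for RV against LV in KO over 18194 genes, 50% of changes of 0.5, 97% of 1 and 100% of 2 were recovered. The simulated spread was independent between arrays, whereas like-numbered KO arrays deviated together, so these shares may not hold for the real arrays.

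Like-numbered LV and RV arrays deviated together in KO (r = 0.210, 0.291 and 0.265 across genes, other pairs -0.276 to 0.016), so the replicate number was also used as a block. In WT they did not all do so (0.231, -0.008 and 0.145). The labels do not say what a number stands for.

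The markers and gene lists were chosen with earlier results of these data known. Named genes were the given markers, all members of the left and right ventricle identity lists, the 12 with the largest called difference in each direction, up to 2 called members per list and direction and up to 5 interaction genes per direction. Other genes named were chosen after their values were seen. Alternatives covered normalization, probe set choice, blocks, array weights, a poly-A control term, each array left out and stricter thresholds.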

Additional observations from a re-analysis of the deposited data

Results flagged for a closer look

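For 4 genes the RV minus LV difference itself differed between KO and WT by the interaction test (limma, Benjamini-Hochberg adjusted p from 0.00033 to 0.0332). The interaction was -3.74 for Dcpp1, -1.60 for Tcf24, -1.25 for Gpnmb and -1.22 for Gfra1. Wnt11, a ligand of the outflow tract, had a difference between genotypes of -0.46. In KO it read 8.48, 8.43 and 8.69 in LV and 8.38, 8.22 and 8.31 in RV, and in WT 8.13, 8.38 and 8.42 in LV and 8.49, 8.56 and 8.56 in RV. Every KO RV array lay below every KO LV array, and every WT RV array above every WT LV array. Of all genes, 10.4% had the first pattern in KO and 10.9% the second in WT. The interaction of Wnt11 did not pass the test (adjusted p = 0.314).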

How the results depend on the processing

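No gene called in KO was called in the opposite direction under any of the alternatives that gave a count of shared calls. The 100 genes higher in RV and 108 higher in LV in KO became 317 and 367 with array weights, 153 and 178 with the random replicate block, 48 and 45 at an adjusted p under 0.01, and 20 and 23 at a difference of at least 1. The poly-A control term moved the first count to 177 and kept 87 and 88 of the main calls. A fit on only the 6 KO arrays moved the second count to 170. The fixed replicate block gave 118 and 146, of which 91 and 96 were among the main calls, and the random block kept all 100 and 108. Leaving out 1 array gave 47 to 154 genes higher in RV and 49 to 167 higher in LV, the highest in both without WT RV replicate 3. Median centring gave 75 and 101.

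The 179 WT genes became 2212 with array weights, 435 with the random replicate block, 41 on the 6 WT arrays alone, 72 with the poly-A control term, 60 at an adjusted p under 0.01 and 31 at a difference of at least 1. They ran from 62 without WT RV replicate 1 to 1734 without WT RV replicate 3, with 375 without WT LV replicate 3. The 4 interaction genes became 1364 with array weights, 1 with the fixed and 9 with the random replicate block, 2 with the mean of a gene's probe sets, 2 with every probe set on its own and 2 at an adjusted p under 0.01. Leaving out 1 array gave 2 to 1309. The cause of these shifts was not tested. Of the other results under alternatives, 2316 kept their call or count, 174 counts moved, 111 calls were lost and 0 changed direction.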

Other observations

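The genes in this section were chosen after their values were seen and from no fixed list, so they are single calls and say nothing of a group (limma, Benjamini-Hochberg adjusted p). Ddc, which makes dopamine and serotonin from their precursors, read 11.16, 11.37 and 11.10 in LV and 12.18, 12.25 and 12.12 in RV (difference 0.97, adjusted p = 0.000472), and Maob, which degrades amines, differed by 0.86 (adjusted p = 0.00716). The glutamate receptor subunits Gria1, Gria2 and Gria3 differed by 1.10, 0.98 and 0.61 (adjusted p = 0.0134, 0.00657 and 0.00649), the first 2 at low signal, between 4.28 and 6.53. Ryr3, a calcium release channel, differed by 1.03, and Pcsk6, a protease that processes growth factors, by 0.89. Other genes called higher in RV were Perm1 (0.80), Cidea (0.85), G0s2 (0.70), Coq9 (0.43) and Acot2 (0.43), with adjusted p from 0.016 to 0.0465.

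Towards LV, Cybb, the catalytic subunit of the phagocyte oxidase, read 6.81, 7.06 and 7.02 in LV and 5.78, 6.01 and 6.17 in RV (difference -0.98, adjusted p = 0.00377). Clec7a, Csf2rb (-0.90), Mpeg1 (-0.77), Coro1a (-0.78), Srgn (-0.81) and Ncf1 (-0.40) were also called, with WT differences from -0.31 to 0.13. Having been picked in this way, they are no support for the macrophage count. None of these 7 had a called interaction, although without WT RV replicate 3 Cybb, Csf2rb and Mpeg1 did, and with the random replicate block Cybb and Csf2rb. The chemokine Cxcl12 read 11.72, 11.54 and 11.73 in LV and 10.65, 10.74 and 10.63 in RV (difference -0.99, adjusted p = 0.000216), and the feedback inhibitors of cytokine signalling Socs2 and Socs3 differed by -0.72 and -0.57.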
